A study of Mus musculus with 23 samples.

Results

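The 10 genes described here, Bdnf, Vgf, Scg2, Inhba, Arc, Homer1, Nptx2, Npas4, Ptgs2 and Gadd45b, are switched on in neurons by synaptic activity. They were listed by name, by a rule that uses no measured value, although earlier results of these data were known. Each matched 1 row of a count table of 55335 mouse genes, and all 10 passed the filter on low counts in every comparison. Their products are secreted proteins, proteins of the synapse, a nuclear factor, an enzyme of prostaglandin synthesis and a stress-response protein, so "synaptic" describes only some of them.

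RNA sequencing of microdissected hippocampus was analysed in 23 libraries from female mice of 2 strains. The 3xTg mice are a model of Alzheimer's disease that carries human APPSwe and tauP301L transgenes, both driven by a neuronal regulatory element of the mouse Thy1 gene. The wild-type (WT) mice are its background strain (C57BL/6J x 129S1), bred as a separate line, so that the transgenes and any other difference between the lines cannot be told apart. Mice of 8 months were not operated on (n = 4 for WT-8M and n = 4 for 3xTg-8M). All mice of 10 months carried a pump that infused the lateral ventricles for 28 days, either with vehicle of 0.8% DMSO (WT-D, n = 4, and 3xTg-D, n = 4) or with the inhibitor SCDi at 80 µM in the same vehicle (WT-S, n = 3, and 3xTg-S, n = 4). SCDi blocks stearoyl-CoA desaturase, which makes monounsaturated fatty acids. All mice were killed with an overdose of the anaesthetics ketamine and xylazine, and animals of both ages therefore share that exposure.

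When a neuron fires, calcium entering through synaptic receptors and voltage-gated channels activates kinases and phosphatases that signal to the nucleus. There, transcription factors such as CREB, SRF and MEF2 start the transcription of immediate-early genes within minutes. Some of these encode further transcription factors, and others, the effectors, act on the synapse itself: they remove or anchor glutamate receptors, release trophic peptides or reshape inhibition. In the hippocampus this response is needed for lasting changes of synaptic strength and for memory, and it is strongest in the granule cells of the dentate gyrus and the pyramidal cells of the CA fields.

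CREB binds the cAMP response element (CRE), a palindrome of 8 bases, or one side of it, the half-site TGACG, which reads CGTCA on the other strand. RefSeq start sites with 250 bases before and 50 after (GRCm38.p6) were at hand for 7 of the 10 genes, at 14 starts, and Arc, Nptx2 and Vgf had no entry. A half-site lay in 5 of these 14 windows, at least once in 5 of the 7 genes, and in 20.8% of all 32851 windows. The full CRE lay in 1 of the 14, that of Scg2, and in 1.79% of all windows. An AP-1 site (TGANTCA), sought on both strands as well, lay at 1 start of Bdnf and in 7.81% of all windows, and neither an EGR site (GCGTGGGCG) nor a CArG box lay in any of the 14. The 4 genes with a half-site upstream of a start are shown as 100 bases of the coding strand, since they show which letters the pathway is known to read. Capitals mark the half-sites. In Scg2 a half-site on either strand joins into 1 CRE at 68 to 61 bases before the start (chr1:79440027-79440126, minus strand). The Bdnf stretch precedes the third of 7 starts (chr2:109692336-109692435, plus strand), and that of Homer1 the first of 2 (chr13:93303657-93303756, plus strand). The stretch of Npas4 begins 220 bases before its start (chr19:4990092-4990191, minus strand). A match of letters says nothing on whether a factor was bound in these hippocampi.
Scg2: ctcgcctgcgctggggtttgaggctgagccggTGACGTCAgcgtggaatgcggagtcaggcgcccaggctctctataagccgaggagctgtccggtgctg
Bdnf: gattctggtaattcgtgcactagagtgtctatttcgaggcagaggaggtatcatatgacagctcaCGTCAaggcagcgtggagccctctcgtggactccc
Homer1: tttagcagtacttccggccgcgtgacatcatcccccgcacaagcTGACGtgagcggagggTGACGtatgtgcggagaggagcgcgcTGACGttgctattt
Npas4: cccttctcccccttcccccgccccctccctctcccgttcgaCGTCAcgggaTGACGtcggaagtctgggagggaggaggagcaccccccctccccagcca

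Libraries held 12802267 to 36686413 gene counts at 8 months and 12992547 to 17575615 at 10 months, and the members had between 32 counts (Npas4) and 9748 counts (Scg2) in a library. The listed markers of dentate granule cells (6 of 6), CA1 pyramidal cells (5 of 5) and CA3 pyramidal cells (5 of 5) averaged over 1 CPM, a count scaled to the size of its library, in every group. Summed markers of choroid plexus, a tissue beside the hippocampus, were 37.9 to 137.5 CPM in 20 libraries. They were 263 to 393.4 CPM in 3xTg-8M replicate 4, WT-S replicate 2 and 3xTg-S replicate 2. Some of the results that use these libraries are given without them too, but those of the called genes of the pathway lists are not. The labels name the samples of a group as separate mice by number only, so the p-values rest on the spread between these samples.

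Per kilobase of exon, the mean level over all 23 libraries ran from the abundant secretory granule protein Scg2, at 102 CPM per kb, through Vgf (39.7 CPM per kb), Arc (21.9 CPM per kb), Homer1 (12.6 CPM per kb), Bdnf (9.08 CPM per kb), Ptgs2 (7.43 CPM per kb), Nptx2 (6.87 CPM per kb) and Gadd45b (5.43 CPM per kb) to Inhba (1.58 CPM per kb) and Npas4 (1.27 CPM per kb). Length counted all annotated exons of a gene, 11976 bases for Homer1, whose longest transcript has 5713. The order depends on that choice. Members also differed in how steady they were from mouse to mouse. The SD of log2 CPM within groups was 0.63 for Npas4 and 0.36 for Arc, above those of 99.5% and 98% of the 11650 genes that averaged 5 CPM or more, and 0.074 for Scg2, above 11.3% of them. The median of those genes was 0.12. Npas4 and Arc are the members known to respond fastest to activity.

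**Figure D1:**
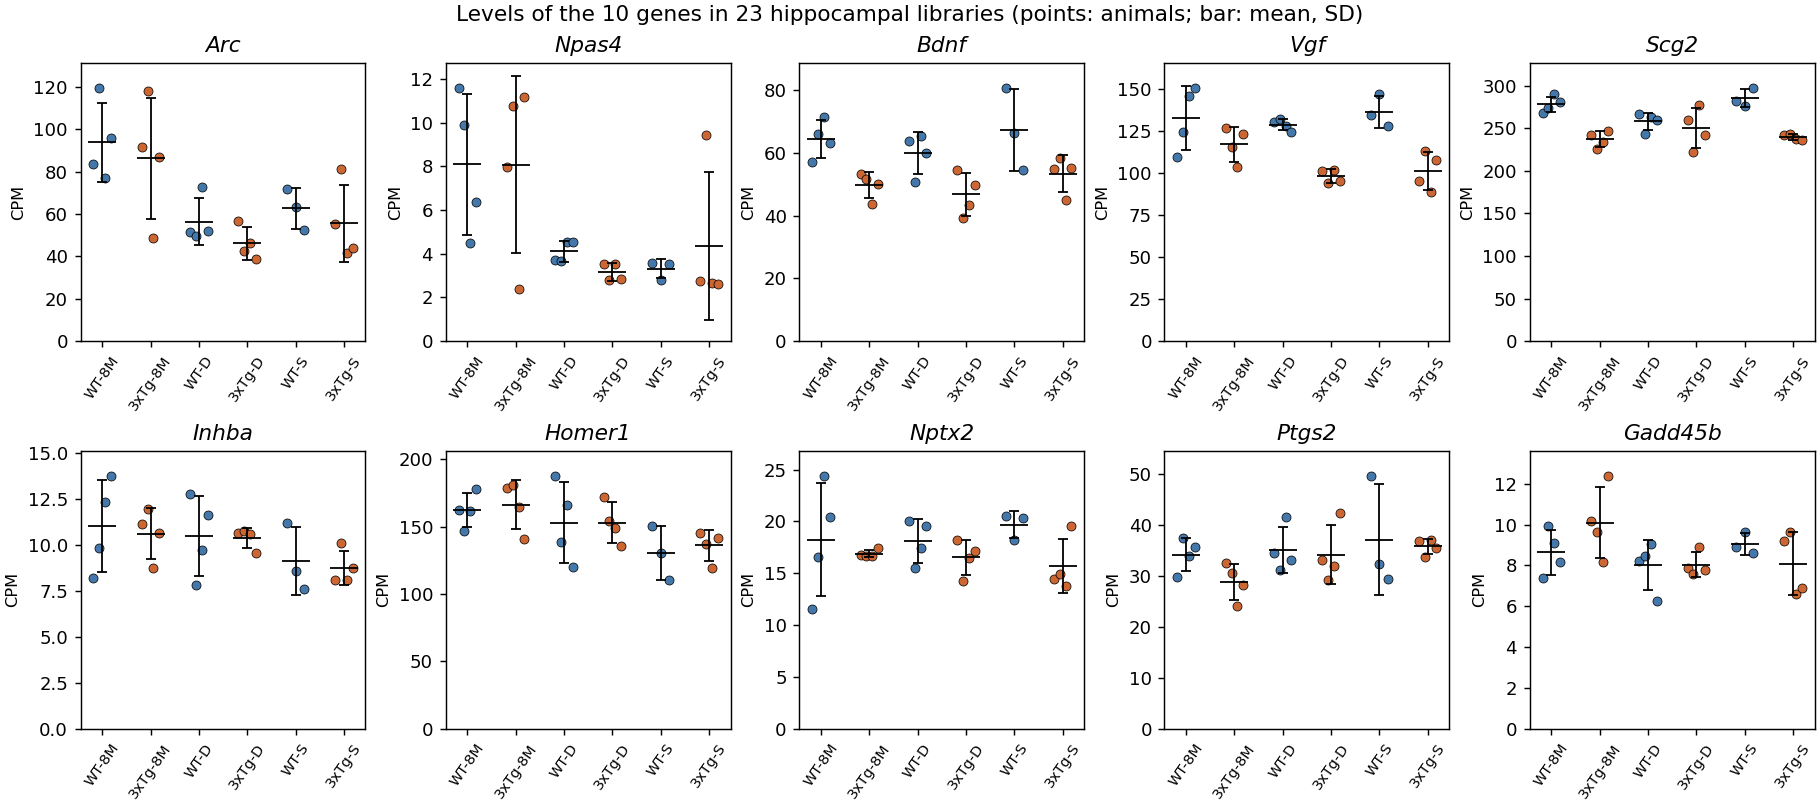
Level of each of the 10 genes in CPM (y axis, from 0) in the 6 groups (x axis), 1 point per mouse, with the mean and SD as bars and WT in blue, 3xTg in orange. Vgf of the 3xTg mice at 10 months lies below that of every WT mouse of that age, and 1 mouse of 3xTg-S stands far above the other 3 in Npas4.

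The first question was whether these genes differed by strain at 8 months, in mice without an operation. Bdnf was lower in 3xTg-8M and Scg2 narrowly missed the threshold, while the genes of the synaptic proteins Arc, Homer1 and Nptx2 were not called. The edgeR quasi-likelihood test, with p-values adjusted over all 15483 genes, called 1 of the 10 members at an adjusted p under 0.05, where it called 1.53% of all genes as lower and 2.58% in either direction. Of the 10, 8 had a negative log2 fold change and 2 a positive one, with a median of -0.11, beside 0.0060 over all genes.

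Bdnf (ENSMUSG00000048482, chromosome 2, 109674700 to 109727007, GRCm38, plus strand) encodes brain-derived neurotrophic factor, a secreted ligand of the TrkB receptor that strengthens excitatory synapses. It was read at 57.2, 65.9, 71.6 and 63.3 CPM in the WT-8M mice and at 53.2, 51.8, 43.8 and 50.1 CPM in the 3xTg-8M mice. No 3xTg-8M value reached the lowest of WT-8M. The log2 fold change was -0.37 (SE 0.08), with an adjusted p of 0.0404. In bulk tissue fewer cells of a type and less RNA per cell cannot be told apart, and the dentate granule cell markers moved with strain: their sum was 475 to 523 CPM in WT-8M and 413 to 468 CPM in 3xTg-8M, and without C1ql2, the only one of the 6 that was called (log2 fold change -1.04), 411 to 470 CPM (WT-8M) and 384.9 to 440 CPM (3xTg-8M). The sum of 10 general neuron markers was also apart, at 7076 to 7581 CPM in WT-8M and 6724 to 7061 CPM in 3xTg-8M, and so was that of 7 microglia markers, at 325 to 373.7 CPM and 375.7 to 450.7 CPM. The part of these in the result was not tested. The Bdnf call was lost when any 1 of 7 of the 8 libraries was left out, at an adjusted p of 0.0644 to 0.113 and a log2 fold change between -0.40 and -0.32, and kept without WT-8M replicate 1 (0.0196). It was also lost once trends with transcript length and GC content were removed (-0.27, adjusted p 0.206). The direction was negative in all 12 alternatives.

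Scg2 (ENSMUSG00000050711, chromosome 1, 79434669 to 79440120, minus strand) encodes secretogranin II, a protein of dense-core vesicles and the precursor of the peptide secretoneurin. Its levels were 268.5, 273.5, 290 and 280.5 CPM in WT-8M and 243, 226, 234 and 247 CPM in 3xTg-8M, so the groups were apart, although the difference is small. The log2 fold change was -0.23 (SE 0.05, adjusted p 0.0545), just short of the threshold, and the DESeq2 likelihood ratio test called it (adjusted p 0.00257). Bdnf and Scg2 were the 2 members whose groups did not overlap, both lower, where 5.84% of all genes tested were lower without overlap. Leaving out 3xTg-8M replicate 4, the library with the highest choroid plexus sum, gave -0.24 and an adjusted p of 0.0301 for Scg2 and -0.37 and 0.0644 for Bdnf.

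Vgf, another precursor of secreted neuropeptides, was at 109, 124, 145 and 150.1 CPM in WT-8M and at 127, 115, 103 and 123 CPM in 3xTg-8M, overlapping groups that differed by -0.17 on the log2 scale (adjusted p 0.406). Ptgs2, the inducible cyclooxygenase that makes prostaglandin precursors, was at 29.7 to 37.4 CPM in WT-8M and 24.0 to 32.5 CPM in 3xTg-8M (log2 fold change -0.23, adjusted p 0.261). Gadd45b, a stress-response protein tied to DNA demethylation at activity-regulated promoters, was at 7.38 to 9.91 CPM in WT-8M and 8.18 to 12.4 CPM in 3xTg-8M (0.24, adjusted p 0.389). Neither difference passed the threshold.

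Arc, which drives internalisation of AMPA-type glutamate receptors, was read at 83.4, 119, 77.1 and 96.0 CPM in WT-8M and at 91.7, 118, 48.7 and 86.9 CPM in 3xTg-8M. The transcription factor Npas4, which controls inhibitory synapse genes, was at 11.6, 9.91, 4.50 and 6.36 CPM in WT-8M and at 7.98, 10.8, 2.40 and 11.2 CPM in 3xTg-8M. Both genes had their lowest value of the 8 mice in 3xTg-8M replicate 3. The groups overlapped throughout, and the 95% intervals of the log2 fold change, -0.59 to 0.35 for Arc and -0.85 to 0.81 for Npas4, leave room for large differences in either direction.

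The remaining members of the secreted and synaptic classes had small estimates at 8 months. Inhba, whose product forms activin A, was at 8.18 to 13.7 CPM in WT-8M and 8.71 to 11.9 CPM in 3xTg-8M, with a log2 fold change of -0.05. Homer1, which links metabotropic glutamate receptors to the postsynaptic scaffold and whose short activity-induced form competes with the long ones, was at 147 to 178 CPM (WT-8M) and 141 to 181 CPM (3xTg-8M), with 0.04. Nptx2, a secreted pentraxin that gathers AMPA-type receptors, ranged from 11.6 to 24.4 CPM in WT-8M but only from 16.7 to 17.4 CPM in 3xTg-8M, with -0.09. Counts per gene do not separate the short from the long forms of Homer1, or the transcripts that Bdnf starts from its several promoters.

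The second question was whether the strains differ at 10 months under vehicle. Vgf was lower in 3xTg-D, and Bdnf had nearly the same difference as at 8 months but was not called. Over all 15528 genes edgeR called 1.39%, or 0.753% as lower, and of the 10 members it called 1, Vgf. As many as 9 of the 10 had a negative log2 fold change, with a median of -0.10, beside -0.0029 over all genes.

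Vgf (ENSMUSG00000037428, chromosome 5, 137026392 to 137033351, plus strand) is cut into peptides that are released with BDNF from dense-core vesicles and is itself induced by BDNF. It was at 130, 132, 128 and 124 CPM in WT-D and at 101, 94.1, 102 and 95.3 CPM in 3xTg-D. The values within each strain were close together, and the highest of 3xTg-D lay well below the lowest of WT-D. The log2 fold change was -0.39 (SE 0.05), with an adjusted p of 0.000618. It was called in all 14 alternatives, with a log2 fold change between -0.41 and -0.36 and an adjusted p of at most 0.00581. Dentate granule markers summed to 458 to 554.5 CPM (WT-D) against 424.5 to 462.5 CPM (3xTg-D), and without C1ql2 to 408 to 487 CPM and 402 to 440 CPM. The neuron markers summed to 6979 to 7670 CPM in WT-D and 6639 to 6895 CPM in 3xTg-D, again apart. Of the 7 microglia markers all had a positive log2 fold change and C1qa was called (0.49, adjusted p 0.0442), with sums of 328.5 to 374.4 CPM and 321.4 to 506.8 CPM. The part of these in the Vgf result was not tested.

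Bdnf was at 63.9, 50.6, 65.4 and 59.8 CPM in WT-D and at 54.5, 39.3, 43.4 and 49.8 CPM in 3xTg-D. One value of 3xTg-D lay within the range of WT-D. The log2 fold change was -0.37 (SE 0.10) with an adjusted p of 0.131. It passed the unadjusted threshold of 0.01 that the study used, but by adjusted p it was called under 1 of 14 alternatives, with no filter on low counts (adjusted p 0.00401).

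Arc and Npas4 had negative estimates as well. Arc was read at 51.4, 49.5, 72.8 and 52.0 CPM in WT-D and at 56.9, 42.6, 46.3 and 38.7 CPM in 3xTg-D, at -0.30 on the log2 scale (adjusted p 0.378). Npas4 was at 3.73, 3.67, 4.53 and 4.53 CPM in WT-D and at 3.54, 2.82, 3.53 and 2.83 CPM in 3xTg-D, with -0.38 (SE 0.15, adjusted p 0.32). The Npas4 groups did not overlap, by a narrow gap. Vgf and Npas4 were the 2 such members, both lower, where 4.36% of all genes tested were lower without overlap. At an unadjusted p under 0.05, 4 of the 10 members were lower (Arc, Npas4, Bdnf and Vgf), where 6.88% of all genes were.

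Scg2, apart between the strains at 8 months, was at 267, 244, 263 and 260 CPM in WT-D and at 260, 222, 278 and 242 CPM in 3xTg-D (log2 fold change -0.05, 95% interval -0.19 to 0.09). The remaining 5 members had log2 fold changes between -0.14 (Nptx2) and 0.0057 (Gadd45b), and none had an unadjusted p under 0.05.

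**Figure D2:**
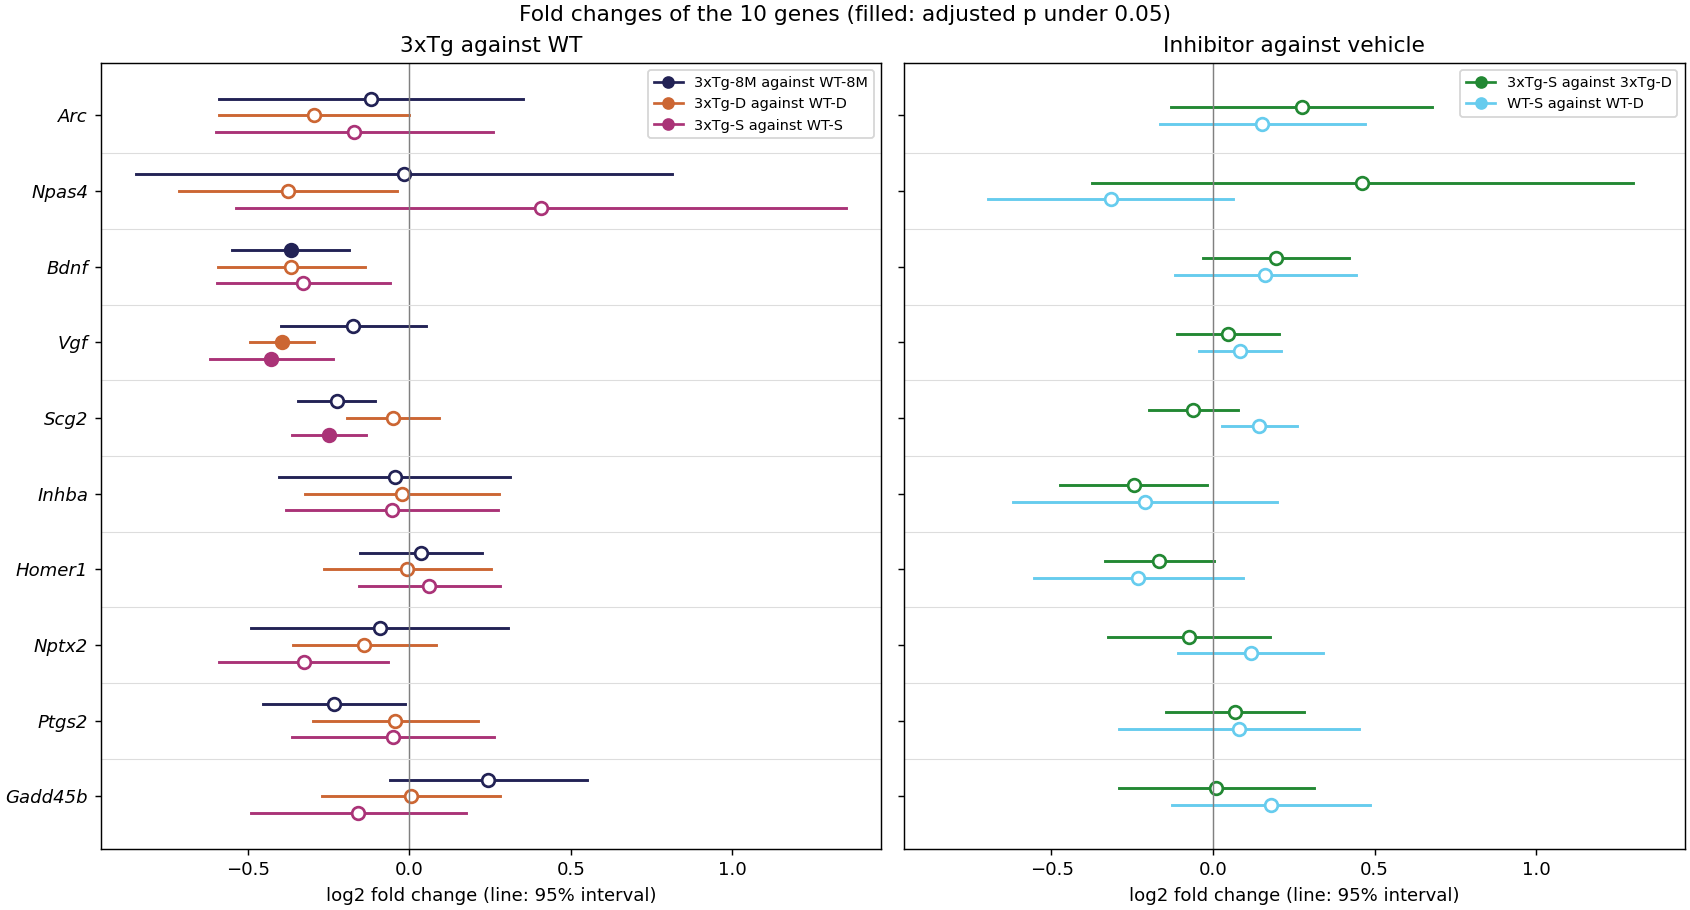
Log2 fold change (x axis) of each of the 10 genes (y axis) between the strains (left, 3 comparisons) and between inhibitor and vehicle (right, 2 comparisons), with the 95% interval as a line and filled points where the adjusted p over all genes was under 0.05. Bdnf has a negative estimate in all 3 strain comparisons, and no point is filled on the right.

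The third question was what the infusion of SCDi did to these genes in 3xTg mice, and whether it brought back what was lower there. No member was called in 3xTg-S against 3xTg-D, and edgeR called 0% of the 15530 genes tested. At an unadjusted p under 0.05 the test passed 11.2% of all genes. The DESeq2 likelihood ratio test called 14 genes, none of them a member. However, it gave Npas4, Nptx2, Inhba and Gadd45b no adjusted p, so it could not call these. Of the 10 members, 6 had a positive and 4 a negative log2 fold change, with a median of 0.03, and the groups of every member overlapped, where 6.85% of all genes did not.

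For Vgf, the member lower in 3xTg-D, the 4 mice of 3xTg-S were at 95.4, 113, 88.5 and 107 CPM, around the 94.1 to 102 CPM of 3xTg-D. The log2 fold change was 0.05, and its 95% interval of -0.11 to 0.20 excludes a return by the 0.39 that separated 3xTg-D from WT-D. Bdnf was at 54.9, 58.5, 44.8 and 55.3 CPM in 3xTg-S, with 3 of the 4 values above the highest of 3xTg-D. Its log2 fold change was 0.20 (SE 0.10, adjusted p 0.494), and the interval of -0.03 to 0.42 covers both no change and a change as large as the strain difference.

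The estimates of Arc and Npas4 rested on 1 mouse. Arc was at 55.3, 81.4, 41.5 and 44.2 CPM in 3xTg-S (log2 fold change 0.27, SE 0.19, adjusted p 0.575), and Npas4 at 2.74, 9.42, 2.65 and 2.63 CPM (0.46, SE 0.39, adjusted p 0.656). In both genes replicate 2 was the highest, and in Npas4 it was more than 3 times the others. Without that replicate the Npas4 estimate turned to -0.25 (adjusted p 0.722) and that of Arc fell to 0.03. The same library had a choroid plexus sum of 263 CPM, against 42.4 to 52.9 CPM in the other 3, the highest blood marker sum of all 23 (209 CPM), and a slope of log2 expression on log2 transcript length of -0.13. The part of these in its Npas4 level was not tested.

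Inhba was at 8.09, 10.1, 8.08 and 8.71 CPM in 3xTg-S and at 10.6, 10.7, 10.6 and 9.54 CPM in 3xTg-D. Its log2 fold change of -0.25 (SE 0.10, adjusted p 0.424) was the only one of the 10 with an unadjusted p under 0.05 (0.0358). Homer1 was at 146, 137, 119 and 142 CPM in 3xTg-S and at 172, 154, 149 and 136 CPM in 3xTg-D, with -0.17 (SE 0.08, adjusted p 0.451). Nptx2, Scg2, Ptgs2 and Gadd45b had estimates between -0.07 and 0.07.

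In WT mice SCDi was compared with vehicle in WT-S against WT-D. No member was called, and neither was any of the 15724 genes (0%), of which 3.42% passed an unadjusted p under 0.05, and the DESeq2 likelihood ratio test called 0. Scg2 was at 282.5, 276 and 297 CPM in WT-S, above all 4 values of WT-D, at 0.14 on the log2 scale (adjusted p 0.981). Npas4 was at 3.56, 2.80 and 3.55 CPM in WT-S, below all 4 of WT-D, with -0.32 (SE 0.17, adjusted p 0.981). These 2 were the members whose groups did not overlap, where 4.9% of all genes did not. Bdnf was at 80.6, 66.4 and 54.5 CPM in WT-S, a spread wider than the strain difference, and its log2 fold change was 0.16 (SE 0.13). Homer1 (-0.23) and Inhba (-0.21) again had negative estimates, as in 3xTg mice.

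In the fit of treatment over both strains, with 15 libraries, no member was called and neither was any of the 16262 genes (0%). An unadjusted p under 0.05 was reached by 2209 genes. The DESeq2 likelihood ratio test called 43 genes and again gave Npas4, Nptx2, Inhba and Gadd45b no adjusted p. Homer1 (log2 fold change -0.20, SE 0.08, adjusted p 0.321) and Inhba (-0.23, SE 0.10, adjusted p 0.335) had an unadjusted p under 0.05, 2 of 10 where 6.79% of all genes tested were lower at that level. The interaction of strain and treatment, which tests whether SCDi acted differently in the 2 strains, called no gene either (0%), with 377 at an unadjusted p under 0.05 and 0 by the DESeq2 likelihood ratio test. Among the members Scg2 had the smallest unadjusted p, with an interaction of -0.20 (SE 0.09, unadjusted p 0.0299, adjusted p 1), with a positive estimate in WT and a negative one in 3xTg mice.

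Strain was also compared among the mice that received SCDi. In 3xTg-S against WT-S, edgeR called 1.32% of 15664 genes, or 0.702% as lower, and 2 of the 10 members, Vgf and Scg2, both lower. Vgf was at 134, 146.5 and 128 CPM in WT-S, above all 4 values of 3xTg-S, a difference of -0.43 on the log2 scale with SE 0.09 (adjusted p 0.0353). Scg2 was at 242, 244, 237.5 and 237 CPM in 3xTg-S, below all 3 of WT-S, with -0.25 (SE 0.05, adjusted p 0.0446). These were the 2 members without overlap, where 5.32% of all genes were lower without overlap.

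Both calls in SCDi-treated mice depended on the set of libraries and on the design. With a block for runs of 4 animal numbers, which the labels do not call a batch, neither was called (adjusted p 0.295 for Vgf and 0.391 for Scg2). With 1 library left out, either was kept only without 3xTg-S replicate 2 (adjusted p 0.0161 for Vgf and 0.0401 for Scg2) and lost without any other 1 library, at adjusted p-values of 0.0588 to 0.151 for Vgf and 0.0754 to 0.169 for Scg2. Over these fits the log2 fold change stayed between -0.49 and -0.37 for Vgf and between -0.27 and -0.22 for Scg2. Without both libraries of high choroid plexus sum, WT-S replicate 2 and 3xTg-S replicate 2, it was -0.43 (adjusted p 0.0659) for Vgf and -0.28 (adjusted p 0.0797) for Scg2. The dentate granule sum was 479 to 518.5 CPM in WT-S and 409 to 444 CPM in 3xTg-S, and without C1ql2 405 to 450 CPM and 384.7 to 414 CPM. The neuron sums overlapped (6751 to 7200 CPM and 6669 to 6957 CPM), and the microglia sums were apart (342.4 to 366.4 CPM and 399.1 to 496.1 CPM). The part of these was not tested. Bdnf (-0.33, SE 0.12, adjusted p 0.326) and Nptx2 (-0.33, SE 0.12, adjusted p 0.318) had negative estimates of similar size but overlapped between the groups.

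**Figure D3:**
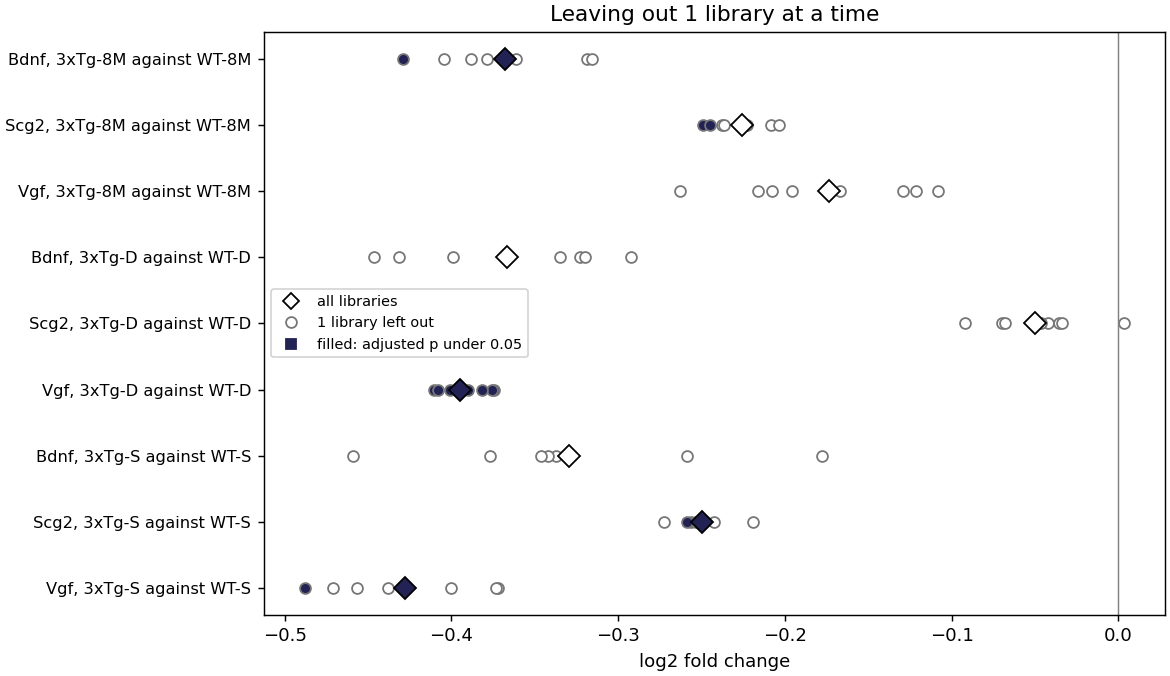
Log2 fold change (x axis) of Bdnf, Scg2 and Vgf in the 3 strain comparisons (y axis), with all libraries (diamonds) and with each library left out in turn (circles), filled where the adjusted p was under 0.05. Vgf under vehicle stays between -0.41 and -0.37 and is called each time, while most other calls are lost with 1 library fewer, and Bdnf in 3xTg-S against WT-S is spread most widely.

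The fit of strain over both treatments at 10 months used 8 3xTg and 7 WT libraries. It called 6.54% of 16262 genes, or 3.36% as lower, and 2 of the 10 members, both lower. Vgf had a log2 fold change of -0.41 (SE 0.05) with an adjusted p of 1.29e-05, and all 8 3xTg mice (88.5 to 113 CPM) were below all 7 WT mice (124 to 146.5 CPM), where 0.953% of all genes were lower without overlap. It was called in all 21 alternatives, at -0.43 to -0.37. Bdnf had -0.35 (SE 0.09) with an adjusted p of 0.0172, and it was called in 20 of 21 alternatives, all but the one without WT-S replicate 1, its highest value, where it was -0.28 (adjusted p 0.0553). Scg2 (-0.14, SE 0.05, adjusted p 0.0823) and Nptx2 (-0.23, SE 0.08, adjusted p 0.118) were not called. Npas4 had -0.02 (SE 0.25, adjusted p 0.981). It was called in 1 of 21 alternatives, without WT-S replicate 2 and 3xTg-S replicate 2 (-0.39, adjusted p 0.0428). That exclusion was chosen after seeing the data. It removes 3xTg-S replicate 2, the highest Npas4 value at 10 months, so it cannot decide whether Npas4 differed by strain.

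Set against WT-D, the WT mice given vehicle, 3xTg-S had Vgf as the only called member (log2 fold change -0.34, SE 0.07, adjusted p 0.0259), where 2.29% of 15567 genes were called, 1.1% as lower. This comparison shares its WT-D mice with 3xTg-D against WT-D, where Vgf had -0.39, and its 3xTg-S mice with the comparison above. Without WT-D replicate 1, WT-D replicate 2 or 3xTg-S replicate 1 the adjusted p was 0.0544, 0.0607 and 0.104. Leaving out 3xTg-S replicate 2, with its high choroid plexus sum, gave -0.40 (adjusted p 0.0108). Bdnf had -0.17 (SE 0.09, adjusted p 0.396) and Scg2 -0.11 (SE 0.05, adjusted p 0.287).

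Whether the strain difference itself differed between untreated mice of 8 months and vehicle-treated mice of 10 months was tested as an interaction, in which 10 of 16108 genes (0.0621%) were called and no member. Vgf (0.22, SE 0.12, adjusted p 0.559) and Scg2 (-0.18, SE 0.08, adjusted p 0.524) had the smallest p-values among the 10, with opposite signs. The Vgf call at 10 months and the lack of one at 8 months is therefore not shown to be a difference. For Bdnf the interaction was -0.0030 (SE 0.14), since the estimate was -0.37 in both.

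Mean levels of the fastest genes, Npas4 and Arc, were also higher at 8 months in both strains. The ages overlapped in both genes among 3xTg mice, and in Npas4 among WT mice. WT-8M replicate 3 had Npas4 at 4.50 CPM, beside 4.53 CPM in WT-D replicates 3 and 4. Arc of WT mice was apart, at 77.1 CPM or more at 8 months and 72.8 CPM or less at 10 months. In 3xTg-8M replicate 3 Npas4 was at 2.40 CPM and Arc at 48.7 CPM, and in 3xTg-S replicate 2 Npas4 was at 9.42 CPM. No test was made, since age, operation, infusion and sequencing of the sets cannot be told apart. The sample titles of 8 months also carry an L that those of 10 months lack. Npas4 averaged 8.08 ± 3.23 CPM in WT-8M and 8.08 ± 4.04 CPM in 3xTg-8M, but 4.115 ± 0.48 CPM in WT-D, 3.18 ± 0.41 CPM in 3xTg-D, 3.305 ± 0.434 CPM in WT-S and 4.36 ± 3.37 CPM in 3xTg-S (SD, n = 3 in WT-S and 4 in the others). Arc averaged 94.0 ± 18.7 CPM in WT-8M and 86.3 ± 28.6 CPM in 3xTg-8M, and 46.1 to 62.7 CPM in the groups of 10 months.

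**Figure D4:**
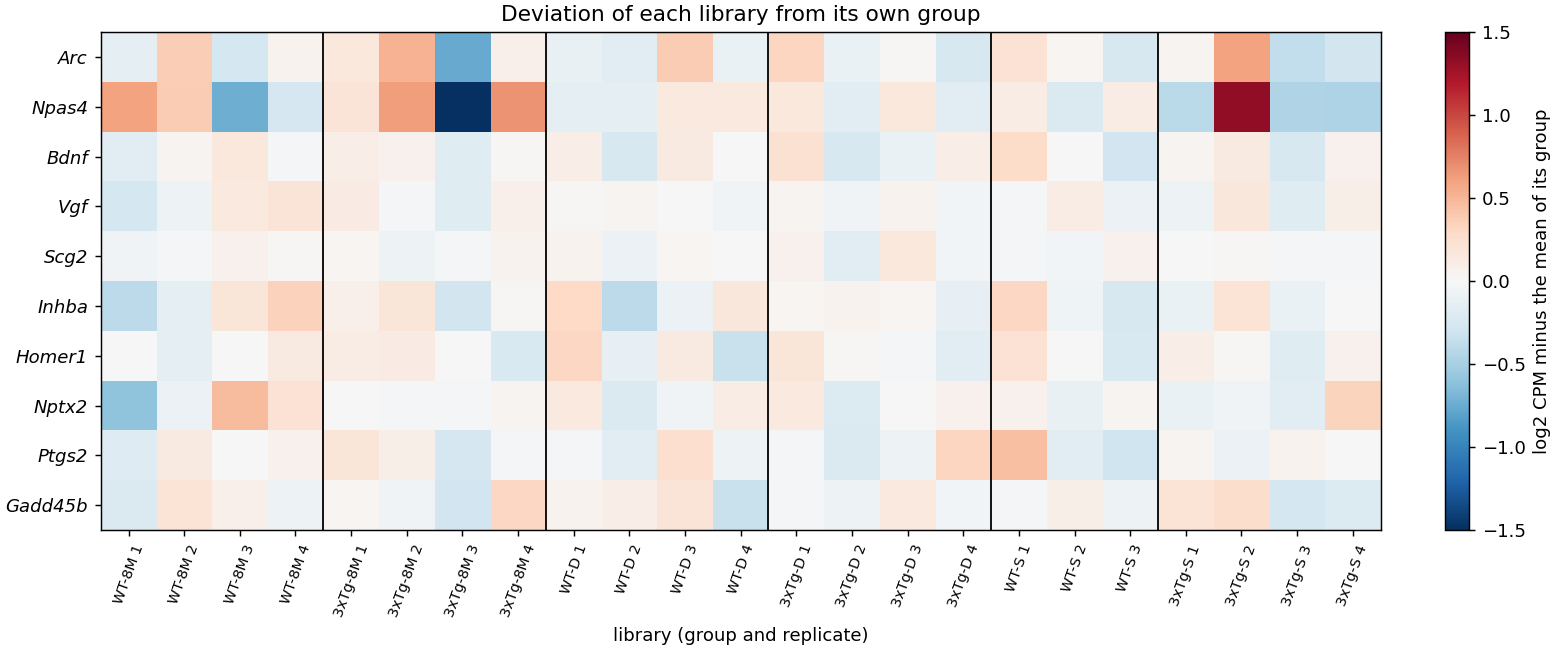
Log2 CPM of each gene (rows) in each library (columns, by group and replicate) minus the mean of its group, red above and blue below. Npas4 and Arc share their lowest library, 3xTg-8M replicate 3, and their highest, 3xTg-S replicate 2, whereas the row of Scg2 is nearly blank.

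Within groups the members moved together only in part. Over the 23 libraries, each centred on its group, the correlation of log2 CPM was positive in 42 of 45 pairs of members, with a median of 0.31. These points share library depth and tissue makeup, so the values are descriptions. Arc and Npas4 had the highest, with r = 0.79 (Spearman 0.71), and r = 0.59 without the 2 libraries farthest from the Arc median, 3xTg-8M replicate 3 and 3xTg-S replicate 2. Bdnf and Ptgs2 followed with r = 0.69 (Spearman 0.62, and 0.72 without the 2 farthest from the Bdnf median). The lowest was Npas4 with Nptx2 (-0.29).

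Among the 11649 other genes that averaged 5 CPM or more, those most like Arc in this measure were Nr4a1 (r = 0.91), Junb (0.81) and Chmp1b (0.80). Nr4a1 and Junb encode rapid transcription factors induced by the same stimuli. Npas4 was most like Pus3 (0.82), the phosphatase gene Dusp1 (0.80) and Arc (0.79). For Bdnf they were Nr4a3 (0.78), Rnf139 (0.77) and Alkbh4 (0.75). Leaving out the 2 libraries farthest from the median gave 0.86 for Arc with Nr4a1 and 0.62 for Npas4 with Pus3.

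The other genes of these pathways were examined as 9 lists. In the 3 comparisons of strain within a treatment, and in both comparisons of the inhibitor, no gene of any list was called. The list of rapid transcription factors and feedback genes (Fos, Egr1, Nr4a1, Dusp1 and others) held 12. In 3xTg-D against WT-D 12 of 12 had a negative log2 fold change, where 51% of all genes had, with a median of -0.18. Of the 12, 4 passed an unadjusted p of 0.05, where 6.88% of all genes were lower at that level. The count of negative values was 9 of 12 at 8 months, where 48.7% of all genes were negative. It was 8 of 12 in 3xTg-S against WT-S, where 48.8% were. Genes induced by the same stimuli can move together, so these signs are not separate observations. In 3xTg-S against 3xTg-D, 8 of the 12 were positive, with a median of 0.24, where 50.5% of all genes were negative. Only 1 was higher at an unadjusted p of 0.05, where 5.65% of all genes were. Without 3xTg-S replicate 2, the library on which Arc and Npas4 rested, 5 of the 12 were positive, with a median of -0.016, and 0 passed that level in either direction.

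Of the receptors and processing enzymes of BDNF and related neurotrophins, 11 of 13 were tested. In the fit of strain over both treatments, Sorcs2, a sortilin-family receptor that binds the BDNF precursor, was lower in 3xTg mice (log2 fold change -0.19, SE 0.06, adjusted p 0.0497), and Frs2, an adaptor of Trk receptor signalling, was higher (0.13, SE 0.03, adjusted p 0.0214). Sorcs2 averaged 59.4 ± 4.9 CPM under vehicle in WT mice, against 51.7 ± 4.8 CPM in 3xTg mice (SD, n = 4 each), and Frs2 70.3 ± 1.9 CPM and 78.1 ± 2.6 CPM. The other 9, the TrkB gene Ntrk2 among them, were not called. In that fit 6.54% of all genes were called, 3.36% as lower, and Sorcs2 lay just under the threshold. Neither Sorcs2 nor Frs2 was examined under the alternatives.

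In the activin list 1 of 12 genes was called in that fit, a share near the 6.54% of all genes. Inhbb, which encodes the other activin subunit, was higher in 3xTg mice (0.37, SE 0.09, adjusted p 0.0131), at 8.67 ± 0.85 CPM (3xTg-D) against 6.65 ± 0.93 CPM (WT-D, SD, n = 4 each), whereas Inhba itself had -0.04. Of 13 other activity-induced effectors tested, 1 was called, again near that share: the clock gene Per1 was lower (-0.21, SE 0.05, adjusted p 0.0127). Its estimate was positive at 8 months (0.13, adjusted p 0.56), and the difference between the ages was not called (adjusted p 0.48).

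Of 10 genes of prostaglandin synthesis and receptors tested, 1 was called in 3xTg-S against WT-D, where 2.29% of all genes were, 1.19% as higher. This was Pla2g4a, the phospholipase that frees arachidonic acid for Ptgs2 (0.68, SE 0.16, adjusted p 0.0396). It was at 5.47 ± 0.64 CPM against 3.40 ± 0.55 CPM (SD, n = 4 each). Ptgs2 had 0.03 there. Pla2g4a was not called in 3xTg-D against WT-D (adjusted p 0.454) or 3xTg-S against 3xTg-D (0.448). Nor was it called in 3xTg-S against WT-S (0.326) or the fit of strain over both treatments (0.06). None of the granins and prohormone processing enzymes (9 tested), the partners of Arc, Homer1 and Nptx2 (14), the genes that signal to activity-regulated transcription (20) or the Gadd45 and demethylation genes (8) was called in any of the 6 pairwise comparisons or in the fit of strain over both treatments. Of the granin list, 7 of 9 had negative estimates in 3xTg-D against WT-D, with a median of -0.10, where 51% of all genes had. At an unadjusted p under 0.05, 1 of the 9 was lower, where 6.88% of all genes were.

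Reads of 2 members may include those of neighbours, since the strand setting of the counting was not stated. Bdnf overlaps an antisense gene, Gm45346, which shares 896 exon bases with it and had at most 9 counts in any library. Inhba lies opposite B230303A05Rik, which had up to 591 counts but shares 0 exon bases.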

How the data were processed

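Hippocampal RNA of 23 mice was analysed. The authors prepared poly(A) libraries, read them from 1 end, trimmed with Trimmomatic 0.35 and aligned with STAR 2.5.1b to GRCm38, and deposited raw counts of reads per gene, not normalised, filtered or pooled. Collapsing of molecular identifiers and the strand setting are not given in the sources used here. Lines naming no gene (24.7% to 30.9% of reads) were left out.

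Groups were fitted in pairs with the edgeR 4.0.16 quasi-likelihood test (filterByExpr, TMM; R 4.3.3), with models over 15 or 16 libraries for strain, treatment and interactions, and p-values were adjusted by Benjamini-Hochberg over all genes. All single-gene p-values come from this test unless DESeq2 1.42.0 is named. The standard error is the log2 fold change divided by the square root of F. CPM are on 1 TMM scale for all libraries, log2 CPM used a prior count of 2, and exon lengths and gene positions came from Gencode M21. The 95% intervals are for the log2 fold change between groups and were taken from its standard error. They rest on the spread between mice but do not give the range of single mice.

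The members, pathway lists and markers were chosen with earlier results of these data known. Named genes were all members, the called genes of each list (at most the 2 largest in each direction) and the 3 genes most correlated with Arc, Npas4 and Bdnf. The test was checked on simulated counts. Of genes given a 1.3-fold change, it recovered 18.5% for strain at 8 months and 34.8% for strain under vehicle. The share was 39.1% for SCDi in WT mice and 59.1% for strain over both treatments. For a 2-fold change it was 80% to 92.2% in these fits. In them, the lack of a call alone therefore does not exclude a 1.3-fold change. Alternatives were an unadjusted p of 0.01, DESeq2 size factors, no filter, the DESeq2 likelihood ratio test, removal of length and GC trends, a block for runs of 4 animal numbers, 1 fit of all groups of 10 months, each replicate left out, and, chosen after seeing the data, all libraries of high choroid plexus markers left out together where a comparison holds more than 1 of them. One element of the 3xTg genotype is not reported here.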

Additional observations from a re-analysis of the deposited data

Results flagged for a closer look

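Among 50 sets of 4 member values, 4 held a library far from the other 3 (Dixon's gap test at the 95% level, which by chance picks about 1 in 20 sets). Npas4 was at 9.42 CPM in 3xTg-S replicate 2, and at 2.63 to 2.74 CPM in the other 3. Arc was at 72.8 CPM in WT-D replicate 3, and at 49.5 to 52.0 CPM in the others. Nptx2 was at 17.4 CPM in 3xTg-8M replicate 4, and at 16.7 to 16.8 CPM in the others. Inhba was at 9.54 CPM in 3xTg-D replicate 4, the lowest, and at 10.6 to 10.7 CPM in the others. No interaction term called a member.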

How the results depend on the processing

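The count of called members changed as follows. For 3xTg-8M against WT-8M the count of 1 (Bdnf) became 2 (Bdnf and Scg2) at an unadjusted p of 0.01, with DESeq2 size factors and with the DESeq2 likelihood ratio test. It was 0 to 2 with 1 library left out. With length and GC trends removed Scg2 was called in place of Bdnf. For 3xTg-D against WT-D the count of 1 (Vgf) became 2 (Bdnf and Vgf) at an unadjusted p of 0.01 and with no filter, and it was 1 with any library left out. For 3xTg-S against WT-S the count of 2 became 3 (with Bdnf) with no filter, 1 (Vgf) in 1 fit of all groups of 10 months, 0 without both WT-S replicate 2 and 3xTg-S replicate 2, 0 to 2 with 1 library left out, and 0 with a block for runs of animal numbers (adjusted p 0.295 for Vgf and 0.391 for Scg2). The labels do not call these runs a batch, and the block changed no other count of called members. With 1 library left out the count was 0 to 1 for 3xTg-S against WT-D, and 1 to 3 for strain over both treatments. For the latter the count of 2 (Bdnf and Vgf) also became 3 at an unadjusted p of 0.01 and with length and GC trends removed (both with Scg2). It became 3 as well without WT-S replicate 2 and 3xTg-S replicate 2 (with Npas4), the exclusion chosen after seeing the data. The labels give no replicate numbers shared between groups, so the block on runs of animal numbers was the only blocked fit. Fewer libraries leave fewer samples to test, and the cause of the other changes was not tested.

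Npas4 changed sign under some alternative in 7 of 10 comparisons, in 5 of them from a reported value within 1 standard error of 0. The other 2 are as follows. In 3xTg-S against 3xTg-D its log2 fold change was 0.46, and -0.25 to 0.64 with 1 library left out, negative without 3xTg-S replicate 2. Its interaction of strain and treatment was 0.78, and -0.035 without WT-S replicate 2 and 3xTg-S replicate 2. Of 1740 member values under the alternatives, 125 had another sign than reported, 123 of them where the reported value was within 1 standard error of 0 and not called.

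Over the whole table, an unadjusted p of 0.01 passed 1066 genes in place of 399 called (3xTg-8M against WT-8M), 769 in place of 216 (3xTg-D against WT-D), 649 in place of 206 (3xTg-S against WT-S), 1026 in place of 356 (3xTg-S against WT-D) and 1595 in place of 1063 (strain over both treatments). With no filter the first 4 had 854, 792, 729 and 1135 called. The DESeq2 likelihood ratio test called 712, 414 and 583 in the first, the second and the fourth. In 3xTg-D against WT-D 1 fit of all groups of 10 months called 355, and 125 were called without 3xTg-D replicate 2. At 8 months 227 were called without 3xTg-8M replicate 1 and 241 without replicate 2. In 3xTg-S against WT-S the block left 78, the removal of both libraries 130, and the removal of WT-S replicate 3, 3xTg-S replicate 1 or 3xTg-S replicate 4 left 135, 105 and 114. In 3xTg-S against WT-D 155 were called without 3xTg-S replicate 1 and 226 without replicate 4. For SCDi, with 0 called, no filter gave 112 in 3xTg mice, 2 in WT mice, 94 over both strains and 8 for the interaction. The difference of the strain effects between the ages had 10 called, 33 with no filter, 20 by DESeq2, 17 without WT-D replicate 1 and 6 without 3xTg-D replicate 3. The counts behind a value were lowest in Npas4 (32 in 1 library) and Gadd45b (90), where counting error is largest.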
